A study of Mus musculus with 3 samples.

Results

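The 9 genes described here, Ifit1, Ifit3, Isg15, Irf7, Bst2, Oasl2, Rsad2, Usp18 and Ifitm3, are interferon-stimulated genes and were taken by name from the 50507 genes of a count table. They were followed singly and summed, to ask whether transfection, or the siRNA in it, raised them in reprogramming fibroblasts. The cells were wild-type BL6 mouse embryonic fibroblasts (MEFs) at passage 2. All of them, controls included, had been transduced with lentiviruses for rtTA and for a doxycycline-inducible cassette of Oct4, Sox2, Klf4 and c-Myc. Lipofectamine RNAiMAX carried a pool of siRNAs at 40 nM into the cells in the 24 h before doxycycline and reprogramming medium were added. The pool was directed against 1 of 33 genes, mostly chromatin factors, or was a non-targeting control (nt), and another control is named Mock. The study calls these cells mock transfected, and what their wells received is not given in the sources used here. These transfected cells were collected at day 6 of reprogramming. Cells of an untransfected time course (Day00 to Day06) were replated only, so Day06 matched the transfected cells in day but not in handling.

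Interferons are secreted when cells sense foreign RNA or DNA, and double-stranded RNA, including some siRNAs, is a known trigger. They signal through cell-surface receptors, JAK kinases and STAT and IRF transcription factors, which bind the interferon-stimulated response element (ISRE) in the promoters of target genes. The products block viral entry, translation and replication, and a rise of these genes after transfection is the usual sign that an siRNA experiment has set off this response.

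RNA was read by CEL-Seq2, which counts unique molecules at the 3′ end of transcripts. Of 129 libraries, 127 had at least 10000 counts and were used: 98 from siRNA pools (33 conditions of 3 libraries, with 2 for siMtf1), 21 of untransfected cells (3 for each day), 5 of Mock and 3 of nt. The 5 Mock libraries belong to 3 replicates, with 2 libraries of the same column name in each of replicates 1 and 2. Nothing in the labels says whether such a pair came from separate cultures. The libraries of a pair were not copies of each other (chi-square per degree of freedom 2.10 and 2.11 over 702 genes, where 5 other pairs of replicates gave 1.48 to 4.60), which does not tell separate cultures from repeat libraries. Means of Mock are therefore given over the 3 replicates, with a pair averaged. The fits took the 5 libraries singly. In a fit with each pair summed to 1 library no call of a member changed in the comparisons run. The siRNAs were not set against the mean of nt and Mock in that fit. Total counts ran from 29656 to 235292, with a median of 73279. Each of the 3 replicates was a separately sequenced pool, with a median total of 64227, 63122 and 127079 counts, and the replicate was a term in the fits unless stated otherwise. Which treatment a library received was known from its column name alone. Each siRNA target was compared between its own condition and the other siRNA-containing libraries, and none of the 33 was lower with an interval below 1. Only 10 targets had 10 or more counts in their own condition (ratios 0.649 to 1.81), so at this depth a fall of most targets could not have been seen, and the check says little about the labels. Of all 33 targets, 8 had no count in their own condition, and Hdac1 was 1.81-fold higher (95% interval 1.07 to 2.89, counting error only). An siRNA name below therefore means the libraries so labelled. All 8 fibroblast markers were detected.

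A promoter motif that the choice of members did not use was found in 6 of the 8 member promoters searched. The ISRE core, GAAA and again GAAA with any 2 bases between them, searched on both strands from RefSeq promoters of GRCm38.p6, was present in 943 of 27025 promoters (3.49%). Irf7 and Oasl2 had no match in the promoter sequence, and no promoter for Usp18 was listed. The windows below show 1 match for each of the 6 genes in capitals, with 10 flanking bases on each side. They are shown because the ISRE is the element that the interferon-activated factors are known to bind. They are matches of letters, and binding was not measured.
Ifit1: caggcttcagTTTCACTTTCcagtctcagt
Ifit3: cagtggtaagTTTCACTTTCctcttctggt
Isg15: tatgccgtagGAAAAGGAAAccgaaacaga
Bst2: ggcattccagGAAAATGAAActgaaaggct
Rsad2: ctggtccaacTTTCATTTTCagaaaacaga
Ifitm3: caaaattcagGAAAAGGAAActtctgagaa
The windows lie at chr19:34640775-34640804 (plus strand) for Ifit1, chr19:34583363-34583392 (plus) for Ifit3, chr4:156200877-156200906 (minus) for Isg15, chr8:71537583-71537612 (minus) for Bst2, chr12:26456553-26456582 (minus) for Rsad2 and chr7:141010723-141010752 (minus) for Ifitm3. The match in capitals began 156, 130, 120, 104 and 78 bases before the RefSeq start in Ifit3, Bst2, Rsad2, Ifit1 and Isg15. In Ifitm3 it lay just after the start, inside the gene. Over the whole promoter sequence of the table, which is longer than the windows printed, the core was matched 3 times in Isg15, once in Rsad2 and 2 times in each of the other 4. The GAS motif (TTCNNNGAA), another element of interferon-responsive promoters, was found in Bst2 and Ifitm3 and in 8.47% of all promoters.

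The pools differed in the sequence of the siRNA that the cells received. A pool held 3 siRNAs for its target, and the list used here gives 2 of them for 26 of the 33 targets, so the strands shown are not the whole of a pool. Those for Wdr5, the condition with the highest Ifitm3, for Phf1, with the most counts of the other 8 genes, and for Pou5f1, among the lowest for Ifitm3, have these sense strands, with the paired part in capitals and the overhang in lower case.
Wdr5: CCAGUUAAGCCAAACUAUGtt
Wdr5: GCCGUUCAUUUCAACCGUGtt
Phf1: GGACGAUUCCCAGUUUCUGtt
Phf1: GGACCGUUUCAUUUCAGGGtt
Pou5f1: GGAGUCCCAGGACAUGAAAtt
Pou5f1: GGAGCUAGAACAGUUUGCCtt

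On GRCm38, with GENCODE vM21, the genes lie at chr19:34640871-34650009 (Ifit1), chr19:34583531-34588731 (Ifit3), chr4:156199424-156200818 (Isg15), chr7:141262706-141266481 (Irf7), chr8:71534255-71537456 (Bst2), chr5:114896936-114912234 (Oasl2), chr12:26442746-26456452 (Rsad2), chr6:121245906-121270917 (Usp18) and chr7:141009586-141010770 (Ifitm3). The members held 4206 counts in all libraries, of which 91.9% belonged to Ifitm3, a membrane protein that blocks the entry of enveloped viruses. Ifitm3 had a count in each of the 127 libraries, 3866 in all. The other 8 members shared 340 counts. Bst2 had 109 in 64 libraries, Ifit1 77 in 43, Rsad2 39 in 26, Ifit3 34 in 27, Usp18 34 in 18, Oasl2 29 in 24, Isg15 10 in 7 and Irf7 8 in 7. No count of the 8 was seen in 25 libraries, and the highest sum in a library was 16. Only Ifitm3 passed the filter on low counts that left 3013 genes for the main test. The other 8 were tested in a second fit of 3139 genes with the same scaling, and their levels are given as pooled counts with intervals.

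Ifitm3 was lower in transfected cells than in untransfected cells of Day06. Levels are given as CPM of a library's total in the tested genes after TMM scaling (scaled CPM), and pooled levels of several libraries are on the same scale. The Day06 libraries stood at 905.0, 614.5 and 695.3 (replicates 1, 2 and 3). The nt libraries stood at 283.1, 254.2 and 384.0, and the 5 Mock libraries at 180.6, 206.0, 230.6, 223.4 and 283.6. Every nt and Mock library was lower than every Day06 library, and nt and Mock overlapped. The mean was 738 ± 150 (SD, n = 3) at Day06, 307 ± 68.1 (SD, n = 3) in nt and 235 ± 45.6 (SD, n = 3) in Mock. In edgeR's quasi-likelihood test with Benjamini-Hochberg adjustment, the log2 fold change of Ifitm3 from Day06 was −1.21 in nt (SE 0.237, adjusted p = 2.44e-05) and −1.64 in Mock (SE 0.252, adjusted p = 1.82e-08). With the Mock pairs summed it was −1.61 in Mock (SE 0.258, adjusted p = 7.21e-08). Ifitm3 was the only member called in either comparison, where 26.6% of all 3013 genes were called for nt and 28.9% for Mock. The median log2 fold change of all tested genes was −0.01 for nt and −0.14 for Mock. P-values here and below measure the spread between these libraries alone, since separate animals are not named. In bulk RNA, fewer cells that express a gene and less RNA per cell cannot be told apart.

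The siRNA pools showed the same. The 98 siRNA libraries ran from 136.8 to 711.9 scaled CPM of Ifitm3, with a median of 344.6, and 3 of them reached the lowest Day06 library. Within the replicates, 36 of 36, 36 of 36 and 33 of 34 transfected libraries were below the Day06 library of their own replicate. The mean over the 35 transfected conditions was lower than Day06 by a log2 fold change of −1.03 (SE 0.153, edgeR quasi-likelihood, adjusted p = 5.58e-09), where 37.5% of genes were called and the median was −0.12. With 1 term for all transfected libraries in place of 1 for each condition, the value was −1.001 (SE 0.205, adjusted p = 0.000128, 26.2% of genes called). Tested singly, 30 of the 33 siRNA conditions had lower Ifitm3 than Day06, and siWdr5 and siEp300 were among those that did not pass the test. Over all genes and siRNAs, 18.9% of such tests were called.

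**Figure D1:**
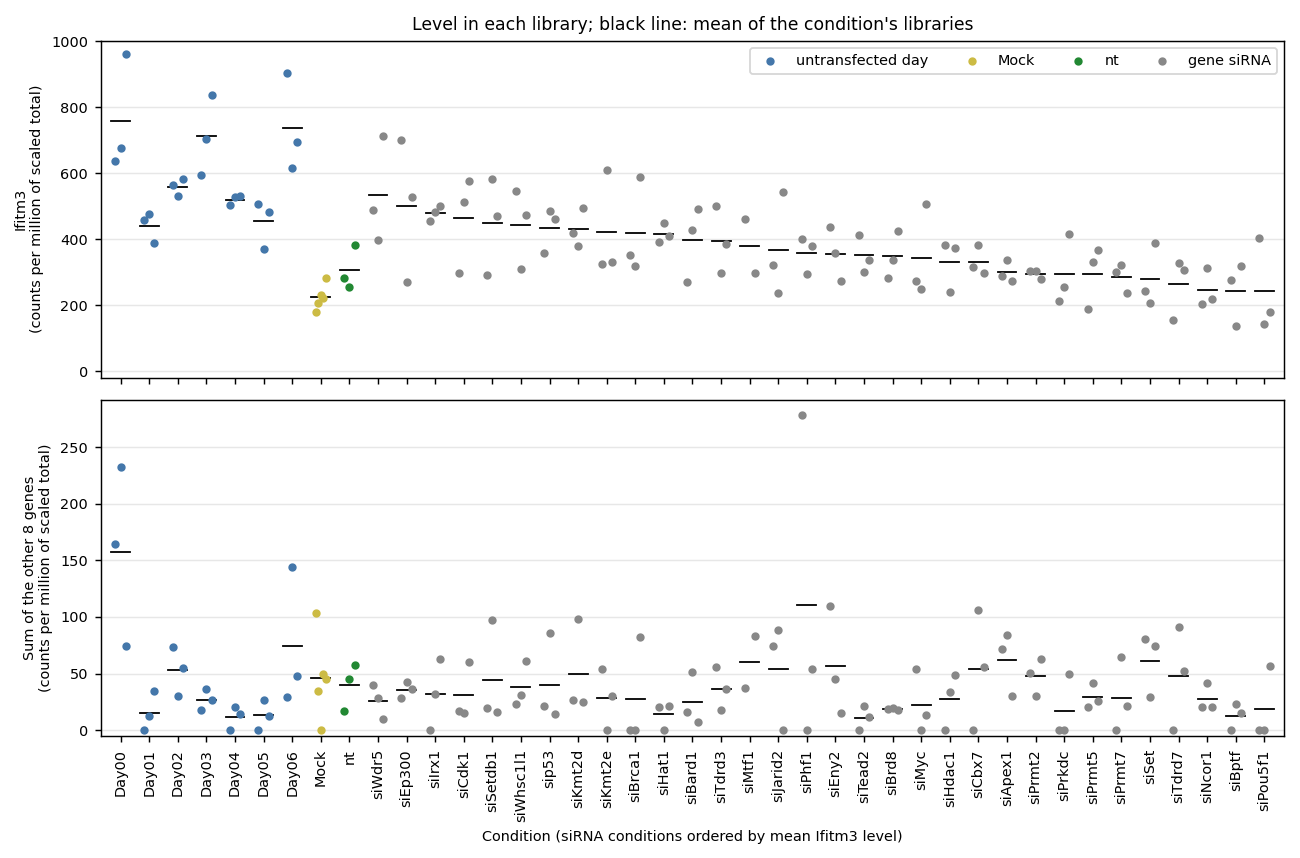
Level of Ifitm3 (upper panel) and of the other 8 members summed (lower panel) in each library, in CPM of scaled total, by condition (32 of the siRNA conditions drawn), with a point for each library. For Ifitm3 the Day06 libraries lie between 614.5 and 905.0 and the nt and Mock libraries between 180.6 and 384.0, while the summed 8 are highest in a siPhf1 library (278.3) and in a Day00 library (232.9).

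The size of the fall, and its call in nt and in all transfected conditions, depended on the untransfected day it was measured from. The study found the transcriptomes of nt, mock and most siRNA cells similar to control cells between Day05 and Day06. Ifitm3 in the time course was 758 ± 176 at Day00, 441 ± 47.2 at Day01, 559 ± 26.5 at Day02, 712 ± 121 at Day03, 520 ± 13.7 at Day04, 454 ± 72.4 at Day05 and 738 ± 150 scaled CPM at Day06 (SD, n = 3 each). The days differed (edgeR quasi-likelihood over the 7 days, adjusted p = 0.000865, 42.5% of genes called), but not without replicate 3 (adjusted p = 0.170). Day06 and Day00 did not differ by the test (log2 fold change −0.10, 95% interval −0.51 to 0.32, adjusted p = 0.803, 22.2% of genes called). Day05, with libraries at 507.5, 371.7 and 483.2, was lower than Day06 and did not overlap it. From Day05, the edgeR log2 fold change was −0.95 for Mock (adjusted p = 0.00803), −0.52 for nt (adjusted p = 0.220) and −0.35 for all transfected conditions (adjusted p = 0.175), where 10.2%, 4.81% and 9.76% of all genes were called. From the mean of the 7 days it was −1.32 for Mock (adjusted p = 2.14e-08), −0.89 for nt (adjusted p = 5.78e-05) and −0.71 for all transfected conditions (adjusted p = 9.05e-20), where 41.8%, 42.7% and 75.6% were called. With Mock, the direction and the call were thus the same from Day06, from Day05 and from all days. With nt and all transfected conditions the direction was the same, and the call was lost from Day05.

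Ordered by mean level over all 42 conditions, Ifitm3 was highest at Day00, Day06 and Day03, whose libraries overlapped. After Day02 the highest named here were siWdr5 at 533 ± 162 (SD, n = 3), Day04 and siEp300 at 500 ± 217. The lowest 4 were siNcor1 at 246 ± 59.4, siBptf at 244 ± 95.2, siPou5f1 at 242 ± 142 and Mock at 235 ± 45.6 (n = 3). The Day02 libraries lay below those of Day03 without overlap, and from Day02 down to Mock each condition overlapped the next in the order. All 33 siRNA means were above the Mock mean, 23 were above the nt mean and 0 were above the Day06 mean. In pooled counts, however, siPou5f1 stood at 228.0 scaled CPM, below Mock at 233.5.

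The libraries with an siRNA pool, nt included, were next set against Mock. Between nt and Mock the log2 fold change of Ifitm3 was 0.43 (95% interval −0.15 to 1.004, edgeR quasi-likelihood, adjusted p = 0.620), and 1.56% of all genes were called. Over nt and the 33 siRNA conditions together it was 0.62 above Mock (SE 0.215, unadjusted p = 0.00402, adjusted p = 0.0977), and 2.46% of all genes were called. With the Mock pairs summed it was 0.60 (adjusted p = 0.164). The difference did not pass the threshold. In counts, the siRNA-containing libraries held 1.65 times the Ifitm3 level of Mock (95% interval 1.24 to 2.23, counting error only), and this was 1.93, 1.55 and 1.45 within replicates 1, 2 and 3. Of the 98 siRNA libraries, 75 were above the highest Mock library and 4 were below the lowest. The nt, Mock and siRNA conditions each had a mean below that of Day06.

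The siRNA pools differed among themselves in Ifitm3 (edgeR quasi-likelihood over nt and 33 siRNAs, adjusted p = 6.50e-05, 44.8% of genes called), though not without replicate 3 (adjusted p = 0.107). Against nt, 1 of 33 was called at an adjusted p under 0.05, beside 2.57% of all gene and siRNA tests. At an unadjusted p under 0.05 there were 6 of 33, beside 12.5% of all such tests. Against the mean of nt and Mock, 5 member and siRNA pairs were called, all of Ifitm3 (siWdr5, siEp300, siCdk1, siIrx1 and siKmt2d), beside 3.38% of all tests. The 1 called against nt was siWdr5, with libraries at 488.7, 398.0 and 711.9 scaled CPM, each above the highest nt library. Its log2 fold change was 0.78 (SE 0.247, adjusted p = 0.0107). With RLE size factors it was 0.96 (adjusted p = 0.00151), and with DESeq2 it was 0.96 (adjusted p = 0.00189). Wdr5 is a core subunit of complexes that methylate histone H3 at lysine 4. The call was lost with adjustment over all siRNAs together (adjusted p = 0.0682), without replicate 2 (adjusted p = 0.0572), without replicate 3 (adjusted p = 0.112), without the filter on low counts (adjusted p = 0.136) and with limma on the deposited log2 values (adjusted p = 0.387), while the log2 fold change was 0.67 with limma and 0.76 to 0.78 in the others. For siEp300 the libraries stood at 700.5, 269.5 and 529.4, so that replicate 2 lay inside the nt range, and the adjusted p by edgeR was 0.0854. It was called with RLE size factors (log2 fold change 0.75, adjusted p = 0.0425) and with DESeq2 (0.75, adjusted p = 0.0459). Without replicate 1, 2 or 3 it was not (adjusted p = 0.590, 0.123 and 0.220). The lowest value was that of siPou5f1, at 405.2, 141.9 and 180.3 (log2 fold change −0.47, adjusted p = 0.461).

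**Figure D2:**
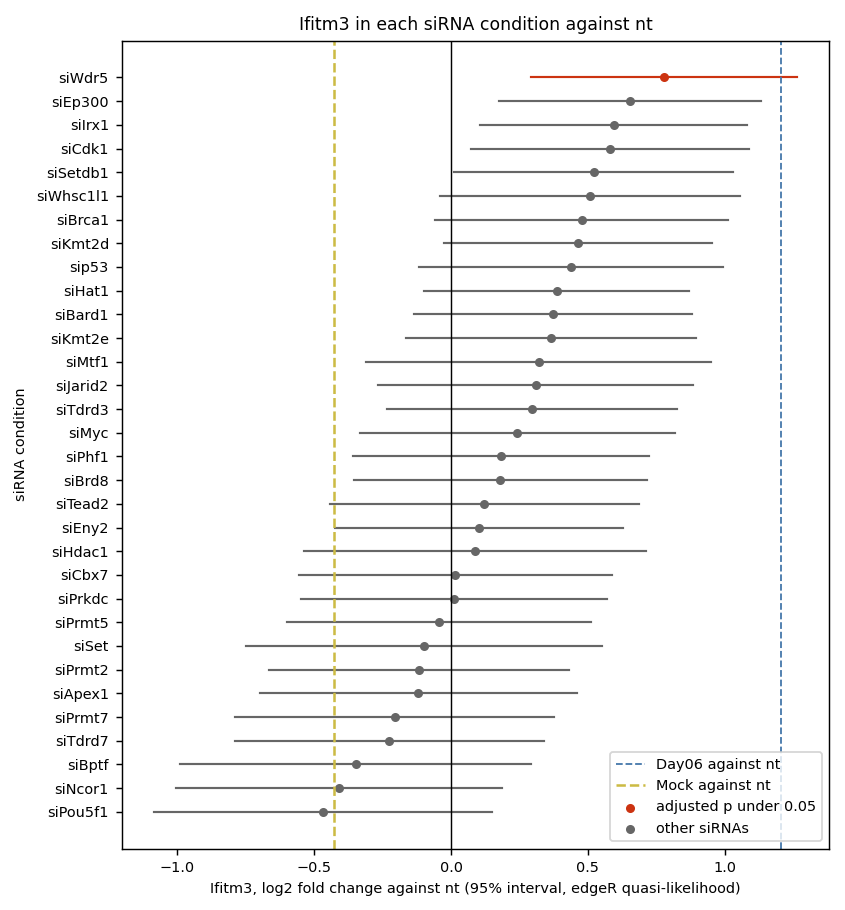
Log2 fold change of Ifitm3 from nt with its 95% interval for 32 of the siRNA conditions, with dashed lines at the values of Day06 and Mock against nt. The siRNA values run from −0.47 for siPou5f1 to 0.78 for siWdr5, all lower than the Day06 line at 1.21 and higher than or near the Mock line at −0.43.

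The other members are classical interferon targets whose rise would mark a response, and none of them was called from Day06 in nt or in Mock. Ifit1 and Ifit3 encode tetratricopeptide proteins that bind foreign RNA and hold back its translation. Ifit1 had counts of 0, 4 and 1 in the Day06 libraries, 0, 1 and 3 in nt, and 3 in all 5 Mock libraries together. At 7.42 scaled CPM over all transfected libraries (54 counts), it was 0.3996 times the Day06 level of 18.6 (95% interval 0.161 to 1.28, counting error only). The fit with a term for each condition called Ifit1 in all transfected conditions against Day06 (edgeR quasi-likelihood, adjusted p = 0.0205). In that fit 13 conditions had no Ifit1 count, and the call was not kept with 1 term for all transfected libraries (adjusted p = 0.243), with DESeq2 (adjusted p = 0.650), without replicate 2 (adjusted p = 0.430), or from Day05 (adjusted p = 0.726). Ifit3 had 2 counts at Day06, 0 in nt, 2 in Mock and 25 in 19 of the 98 siRNA libraries. Its ratio of all transfected libraries to Day06 was 0.4995, with an interval from 0.1255 to 4.33.

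Rsad2 (viperin, an enzyme that makes a chain-terminating nucleotide), Oasl2 (of the oligoadenylate synthetase family) and Bst2 (tetherin, which holds budding virus at the cell surface) are further antiviral effectors of the list. Rsad2 had 1 count at Day06, 1 in nt and 1 in Mock, and Oasl2 had 1, 0 and 0. Over the siRNA libraries they stood at 3.96 and 3.37 scaled CPM (27 and 23 counts), with 18 and 19 of the 33 conditions at 0. Bst2 was the best covered, with counts of 1, 1 and 3 in the Day06 libraries, 0, 2 and 4 in nt, and 1 in 4 of the 5 Mock libraries. The 3 groups overlapped. Its level was 18.6 scaled CPM at Day06, 24.1 in nt, 19.1 in Mock and 12.8 in the siRNA libraries, and its edgeR log2 fold change from Day06 was 0.34 for nt (SE 0.985, adjusted p = 0.833) and 0.15 for Mock (SE 1.03, adjusted p = 0.942). Bst2 had no count at Day01, Day02 and Day05. Against the mean of the 7 days it was called higher in nt (adjusted p = 0.0139) and in Mock (adjusted p = 0.0404), where 42.7% and 41.8% of all genes were called. It was not called in all transfected conditions against that mean (adjusted p = 1.0, with 6 of the conditions compared at 0, 75.6% of all genes called). Pooled, all transfected libraries held 2.02 times the Bst2 level of all untransfected libraries (95% interval 1.10 to 4.04, counting error only), but 0.718 times that of Day06 (0.297 to 2.26).

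Isg15 (a ubiquitin-like protein joined to other proteins) and Usp18 (the protease that removes it and that also dampens receptor signalling) are a pair of modifier and regulator, and Irf7 is the transcription factor that amplifies interferon production. Isg15 had 0 counts at Day06, in nt and in Mock. The limit of 3 counts taken for a count of 0 is 11.1, 12.03 and 14.3 scaled CPM there, and the upper end of the 95% Poisson interval is 13.7, 14.8 and 17.6. Of its 10 counts 4 were at Day00 and 5 were in siRNA libraries, where its level was 0.733 scaled CPM. The end of Isg15 is 95.6% identical to that of AC151275.1 over 136 bases, so its few counts may be shared between them. Irf7 had 1 count at Day06, 0 in nt, 0 in Mock and 6 in 5 siRNA libraries. Its exons overlap Phrf1 on the opposite strand.

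Usp18 was called over the time course. Its counts at Day00 were 3, 4 and 2 (61.6, 84.7 and 16.6 scaled CPM). After Day00 it had 1 count at Day02 and 2 at Day06, both of these in replicate 2, and it had none on the other days. The adjusted p over the 7 days was 0.00672 (edgeR quasi-likelihood), and the call was not kept without replicate 1 (adjusted p = 0.148) or without replicate 2 (adjusted p = 0.236). Usp18 had 0 counts in nt and in Mock and 22 in 13 of the 98 siRNA libraries. Its pooled level in all transfected libraries was 0.0728 times that of Day00 (95% interval 0.0322 to 0.180, counting error only). Ifit1, at 41.5 scaled CPM in Day00, and Isg15, at 18.5, were likewise at their highest there, at 0.179 (0.0875 to 0.412) and 0.0372 (0.00801 to 0.188) times Day00 in the transfected libraries. Untransfected cells were also lower by Day06. The ratio of Day06 to Day00 was 0.179 for Usp18 (0.0188 to 0.864) and 0.447 for Ifit1 (0.118 to 1.485), and Isg15 had 0 counts at Day06.

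**Figure D3:**
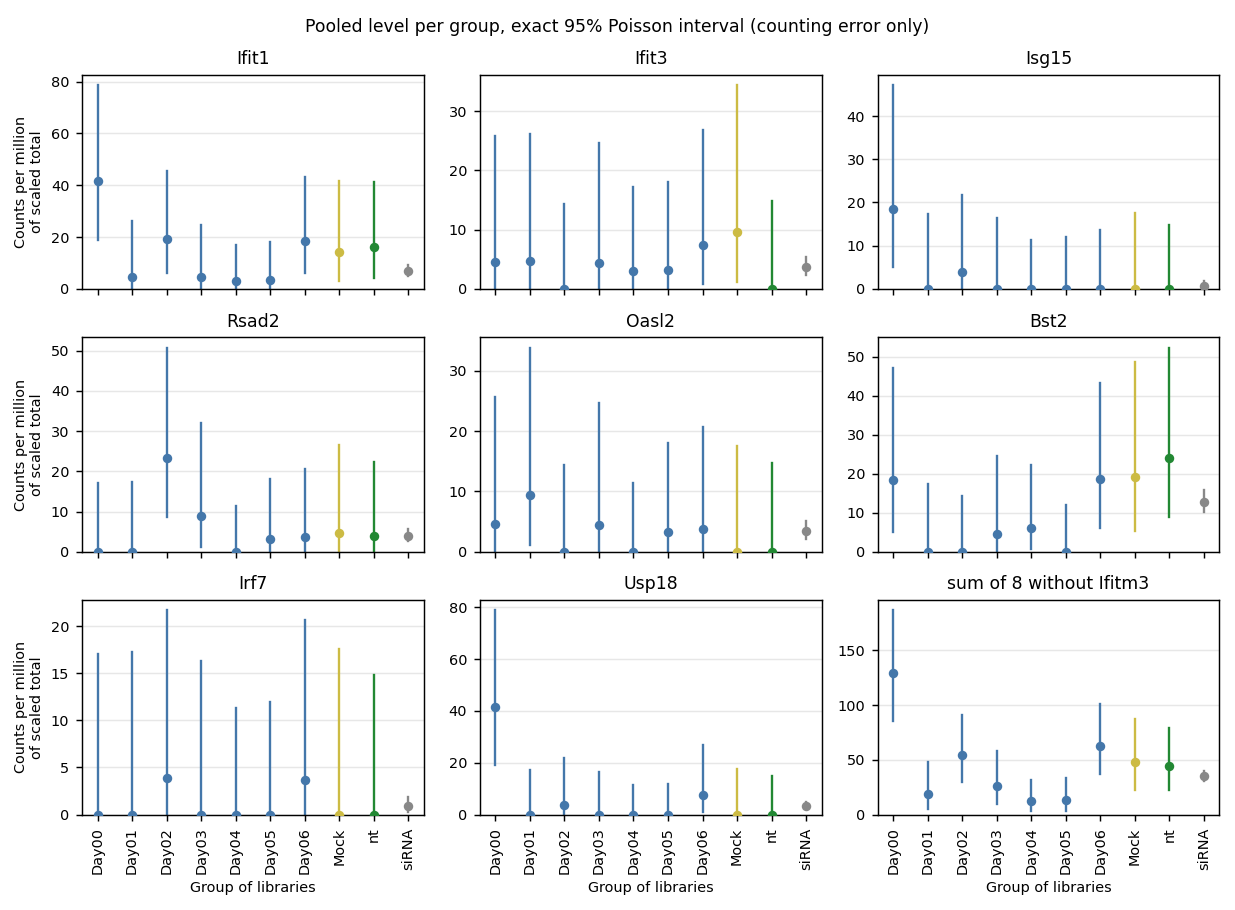
Pooled level of each of the 8 low members and of their sum in Day00 to Day06, Mock, nt and the siRNA libraries, in CPM of scaled total with exact 95% Poisson intervals that cover counting error only. The sum is highest at Day00 (129 scaled CPM) and lies at 63.1 in Day06, 47.7 in Mock, 44.1 in nt and 35.5 in the siRNA libraries.

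Against single siRNA conditions, none of the 8 low members was called from nt or from Day06 in any of the 33 comparisons (edgeR quasi-likelihood), where 2.57% and 18.9% of all gene and siRNA tests were called. The numbers of siRNAs at an unadjusted p under 0.05 against nt were 2 for Bst2, 1 each for Ifit1, Ifit3, Oasl2, Rsad2 and Usp18, and 0 for Irf7 and Isg15. These were 7 of 264 tests (2.65%), beside 12.5% of all gene and siRNA tests against nt. Against Day06 they were 5 of 264 (1.89%), beside 31.4%. Given how few counts there were, a moderate rise of a single gene in 1 condition was not detectable at this depth.

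Summed, the 8 low members had narrower intervals than singly. Their level was 129 scaled CPM at Day00 (28 counts, 95% interval 85.8 to 187), 18.8 at Day01, 54.4 at Day02, 26.5 at Day03, 12.3 at Day04, 12.9 at Day05 and 63.1 at Day06 (17 counts, 36.8 to 101). It was 47.7 in Mock (10 counts, 22.9 to 87.6), 44.1 in nt (11 counts, 22.0 to 78.9) and 35.5 in the siRNA libraries (242 counts, 31.1 to 40.2). The ratio to Day06 was 0.755 for Mock (0.309 to 1.75), 0.699 for nt (0.296 to 1.58) and 0.572 for all transfected libraries (0.351 to 0.998), counting error only. Within replicates 1, 2 and 3 the last ratio was 1.21, 0.274 and 0.720. Of the 17 Day06 counts 8 came from replicate 2, and without replicate 2 the ratio was 0.831 (0.428 to 1.85). The siRNA-containing libraries stood at 0.751 times Mock (0.402 to 1.59) and nt at 0.926 times Mock (0.357 to 2.43). Without replicate 1 these were 1.03 (0.433 to 3.20) and 1.5 (0.467 to 5.59), so the direction rested on that replicate. From all untransfected days the ratio was 0.853 (0.659 to 1.11). The ratios to Day06 moved both ways with single replicates left out. Without replicate 1, 2 and 3 they were 0.474 (0.135 to 1.37), 1.41 (0.474 to 4.12) and 0.601 (0.194 to 1.75) for Mock, and 0.712 (0.286 to 1.69), 1.04 (0.350 to 3.05) and 0.387 (0.0886 to 1.34) for nt. Measured from Day05, which held 4 counts of the 8 genes, the direction was the opposite: the ratio was 3.69 for Mock (1.06 to 16.1), 3.41 for nt (1.01 to 14.7) and 2.79 for all transfected libraries (1.08 to 10.3), counting error only. Whether the summed 8 genes were lower or higher after transfection thus depended on the untransfected day, and a moderate rise could not be told from none at this depth. With Ifitm3 included, the sum of all 9 was 0.525 times Day06 in all transfected libraries (0.457 to 0.605), 0.465 in nt and 0.354 in Mock, and 0.877, 0.777 and 0.592 times Day05, and these ratios rest mainly on Ifitm3.

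By the sum of all 9, siWdr5 (559 ± 150 scaled CPM, SD, n = 3) and siEp300 (536 ± 210) were highest among the siRNAs, and siPou5f1 (261 ± 133) and siBptf (256.5 ± 88.9) were lowest. By the sum of the low 8, siPhf1 led with 21 counts, at 278.3, 0 and 54.4 scaled CPM in replicates 1, 2 and 3. The library of replicate 1 was the highest of all 127, with 5 counts of Ifit1, 4 of Ifit3, 4 of Rsad2 and 1 each of Irf7, Bst2 and Usp18, so that 6 of the 8 genes were present in it. In its sister libraries Ifit1, Irf7 and Usp18 had no count. The pooled siPhf1 level was 101 scaled CPM with that library (62.7 to 155) and 33.4 without it (10.8 to 77.9), beside 35.5 over all siRNA libraries. Ifitm3 in that library was 400.0 scaled CPM, beside 293.5 and 380.7 in the other two.

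The rest of the pathway was sparse. Of 115 genes listed by role, 108 had a count and 7 passed the filter. None of the 7 was called between nt and Mock or between siRNA-containing libraries and Mock, where 1.56% and 2.46% of all genes were called, and 2, 1 and 2 of them were called from Day06 in nt, Mock and all transfected conditions, where 26.6%, 28.9% and 37.5% of all genes were called. Of 7 interferon ligands, Ifnb1, Ifna4, Ifna2, Ifne and Ifng had no count in any library, Ifnk had 2 and Ifnl2 had 1. All 6 receptors were detected, without a call. Over all libraries Ifnar2 had 186 counts, Ifngr2 159, Ifngr1 93, Il10rb 74, Ifnar1 53 and Ifnlr1 1. Each had at most 4 counts in Mock and 3 in nt, too few to set these groups apart.

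Jak1, the kinase that carries the signal from the receptors, fell with Ifitm3. It stood at 225 ± 76.7 scaled CPM at Day06 (SD, n = 3), 65.2 ± 34.5 in nt (n = 3), 93.4 ± 25.7 in Mock (n = 3) and a median of 111 over the siRNA libraries. Its edgeR log2 fold change from Day06 was −1.72 in nt (SE 0.453, adjusted p = 0.00219), −1.10 in Mock (SE 0.421, adjusted p = 0.0361) and −0.91 in all transfected conditions (SE 0.270, adjusted p = 0.00419). With 1 term for all transfected libraries the last was −0.74 (adjusted p = 0.109). The siRNA conditions differed in 5 of the 7 pathway genes that passed the filter, namely Jak1 (adjusted p = 2.26e-09), Irak1, Ifitm1, Ifitm2 and B2m, beside 44.8% of all genes. The pooled Jak1 level in transfected libraries was 0.643 times Day06 and 0.642 times Day05.

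Of the relatives of Ifitm3, Ifitm1, a cell-surface member of the same family, was higher in nt than at Day06, and Ifitm2 did not pass the test. Ifitm1 stood at 249 ± 60.0 scaled CPM in nt and 87.9 ± 15.0 at Day06 (SD, n = 3 each), without overlap (edgeR quasi-likelihood, log2 fold change 1.31, SE 0.411, adjusted p = 0.0106). In Mock it was 152 ± 15.5 (n = 3; log2 fold change 0.65, adjusted p = 0.292), and over all transfected conditions it was called higher (0.94, SE 0.325, adjusted p = 0.0157), with an adjusted p of 0.0543 under 1 term. Over the time course Ifitm1 rose by 2.58 on the log2 scale from Day00 to Day06 (edgeR, SE 0.773, adjusted p = 0.00743). At Day05 it stood at 154 ± 87.0 scaled CPM (SD, n = 3), with libraries from 92.9 to 253.7. These overlapped nt, at 179.7 to 284.2, so the difference of nt from untransfected cells depended on the day. Ifitm2 differed from Day06 by −0.10 in nt (95% interval −0.70 to 0.50, adjusted p = 0.829) and by −0.14 in Mock (−0.75 to 0.48, adjusted p = 0.775) on the log2 scale.

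**Figure D4:**
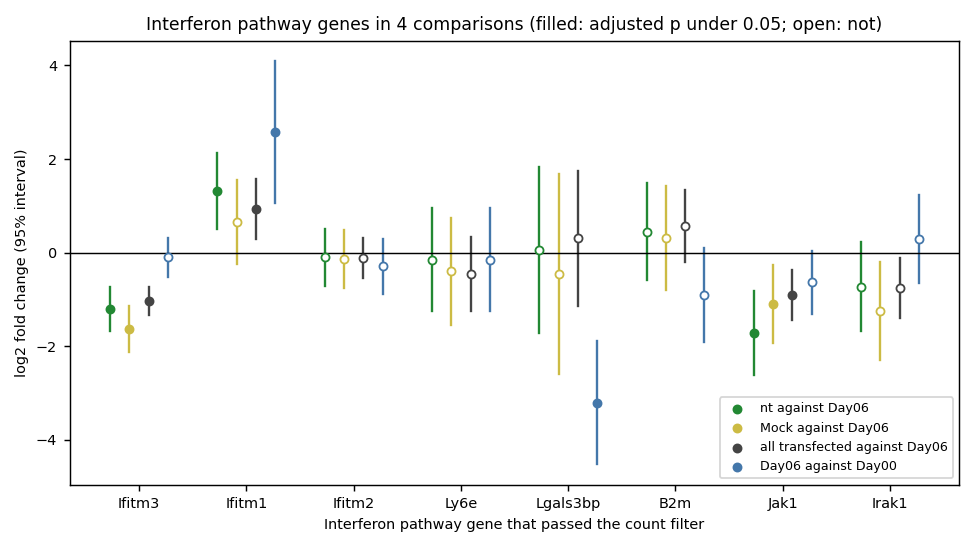
Log2 fold change with its 95% interval of Ifitm3 and the 7 other pathway genes that passed the filter, in 4 comparisons. The intervals of Ifitm3 and Jak1 lie below 0 in nt and in Mock against Day06, that of Irak1 lies below 0 in Mock alone (adjusted p = 0.0638), and that of Ifitm1 lies above 0 in nt and includes 0 in Mock. In Day06 against Day00 the interval of Ifitm3 includes 0, that of Ifitm1 lies above it and that of Lgals3bp below.

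Of the 101 pathway genes below the filter that were tested, 4 were called under 1 term for all transfected libraries, all 4 lower than at Day06, beside 26.2% of the genes that passed the filter. The edgeR log2 fold change was −1.77 for Ifih1, the MDA5 sensor of long double-stranded RNA (adjusted p = 0.0359), −2.06 for Parp12 (adjusted p = 0.00348), −1.19 for Samhd1, which depletes nucleotides (adjusted p = 0.0281), and −0.99 for Psme1, a proteasome activator (adjusted p = 0.0277). Ddx58, the RIG-I sensor that recognises short double-stranded RNA, had 273 counts in transfected libraries, and its ratio was 0.481 to Day06 (95% interval 0.308 to 0.790, counting error only), but it was not called under 1 term (log2 fold change −1.07, adjusted p = 0.0977). From Day05, however, the ratios were 1.08 for Ifih1, 0.520 for Parp12, 1.25 for Samhd1, 1.196 for Psme1 and 1.66 for Ddx58, so the ratios differed with the day. The fit with a term for each condition called 17 of the 101, beside 37.5% of the genes that passed the filter. Among these were Myd88, Tlr3, Lgals9, Rnf213 and Trim30a, each with conditions at 0, and under 1 term their adjusted p was 0.0824, 0.0974, 0.135, 0.133 and 0.129. Against single controls 1 of the 101 was called in nt and 3 in Mock, beside 26.6% and 28.9%. Ifih1 was called in nt (0 counts beside 7 at Day06, adjusted p = 0.0462), and Lgals9 (0 counts in Mock, adjusted p = 0.0439), Psme1 (−1.75, adjusted p = 0.0197) and Samhd1 (−2.38, adjusted p = 0.01604) in Mock. From Day00 to Day06, without transfection and where 22.2% of genes were called, 3 of the 101 were called, of which 2 are named here. Lgals3bp, which passed the filter, fell by 3.21 (adjusted p = 4.80e-05), Ifi27 fell by 2.79 on the log2 scale (adjusted p = 0.00320), and Irgm1 was called with 1 condition at 0 (adjusted p = 0.0494). Over the 7 days 5 of the 101 were called (Ddx58, Ifi27, Ifih1, Lgals9 and Psmb10), beside 42.5% of the genes that passed the filter. Among the siRNA conditions 3 of the 101 were called, beside 44.8%. These were Eif2ak2, the kinase that halts translation on double-stranded RNA (adjusted p = 0.0455), Ifi204 (adjusted p = 0.0197) and Shisa5 (adjusted p = 0.0437).

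Cell type markers were read beside these results. The summed fibroblast markers stood at 2241 to 3131 scaled CPM at Day06, 1358 to 1931 in Mock and 1299 to 1565 in nt, so they were lower with Ifitm3, and their part in its fall was not tested. In the siRNA libraries the sum ran from 744 to 4689, with a median of 1881, and covered the Day06 range. Of the 6 tested, 3 were called lower in nt than at Day06 by edgeR, namely Col1a1 and Col1a2, the chains of type I collagen (log2 fold change −1.39 and −1.24), and Thy1 (−0.80). Col3a1, Vim and Fn1 did not pass the test, at −0.51, −0.32 and −0.21. At Day05 the libraries lay at 278.8 to 451.0 scaled CPM for Col1a1, 305.3 to 545.5 for Col1a2 and 225.7 to 354.3 for Thy1. Those of nt lay at 138.9 to 209.4, 284.2 to 349.7 and 179.7 to 239.3, so nt overlapped Day05 in Col1a2 and Thy1 but not in Col1a1. In Mock 2 of the 6 were called, Col1a1 at −1.04 and Col1a2 at −0.95. The share of all genes called was 26.6% for nt and 28.9% for Mock. In all transfected conditions the same 2 were called, at −0.83 and −0.88, beside 37.5% of all genes, and under 1 term only Col1a2 was (−0.75, adjusted p = 0.0408), with Col1a1 at −0.63 (adjusted p = 0.186). From Day00 to Day06, where 22.2% of all genes were called, 4 of the 6 were called lower, Fn1 at −2.89, Col1a2 at −1.67, Col1a1 at −1.58 and Vim at −1.12, while Col3a1 (−0.65, adjusted p = 0.244) and Thy1 (0.16, adjusted p = 0.738) did not pass the test. Of the 10 macrophage and other immune markers C1qa was at 0, and their sum was 18.1 to 89.0 at Day06, 0 to 51.6 in Mock and 32.7 to 74.8 in nt, overlapping in all. Lyz2, the lysozyme of macrophages and the immune marker that passed the filter, was called in all transfected conditions against Day06 (edgeR quasi-likelihood, adjusted p = 0.00283), with 8 conditions at 0, and was at −1.56 under 1 term (adjusted p = 0.0791). Its pooled ratio to Day06 was 0.337 (0.175 to 0.726, counting error only). It was not called in nt (−0.92, adjusted p = 0.496) or in Mock (−1.40, adjusted p = 0.326), and it was called lower from Day00 to Day06 (−1.87, adjusted p = 0.0349). Its part in the fall of Ifitm3 was not tested. The endothelial markers Cdh5 and Cldn5 were at 0, and the 5 endothelial markers summed to at most 34.1 in these groups. The 4 epithelial markers summed to 74.2 to 217 at Day06, 24.8 to 172 in Mock and 89.7 to 150 in nt.

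Outside the pathway, the genes whose mean log2 level over the 42 conditions followed the sum of the 9 members most closely included Sparc (Pearson r = 0.796), Gsn (0.769), Pdpn (0.754) and Plpp1 (0.747). Over the 35 transfected conditions alone r was 0.663, 0.568, 0.648 and 0.517. Ifitm3 held 91.9% of the member counts, so the sum mainly followed that gene and says little of the other 8. These are descriptions over condition means that share libraries, depth and replicates. Sparc, a collagen-binding matrix protein, stood at 1063 scaled CPM at Day06, 438 in nt and 451 in Mock.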

How the data were processed

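The authors aligned CEL-Seq2 reads to mm10 (GRCm38) with Bowtie2 and deposited unique-molecule counts per gene (GENCODE vM13), with no normalization, and a second table of 10568 genes in log2 CPM, from which they had regressed the batch. The members and lists were chosen with earlier results of these data known. Of the members' pathway genes, those called in a comparison were named, at most 12 in each by smallest p. Counts of 127 libraries were fitted by edgeR 4.0.16 (R 4.3.3; TMM, filterByExpr, condition plus replicate, 83 residual degrees of freedom) and tested by quasi-likelihood with Benjamini-Hochberg adjustment over all genes of a comparison. DESeq2 1.42.0 and limma 3.58.1 (on the log2 values) were alternatives. The fit was tested on simulated data first. The replicate number marks a shared sequenced pool, and deviations from condition means correlated at a median r of 0.0981 within and −0.0685 between replicates. Ratios pool counts, with exact conditional intervals for counting error only, and a count of 0 is taken as up to 3. Libraries with 6403 and 7981 counts were left out. Some items are not reported here. Member genes were located with GENCODE vM21.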

Additional observations from a re-analysis of the deposited data

Results flagged for a closer look

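Within the 5 Mock libraries, a library stood apart from the other 4 for each of 2 members, not the same library. Ifit3 was at 29.85 scaled CPM (2 counts) in the Mock library of replicate 3 and at 0 in the other 4. Rsad2 was at 25.8 scaled CPM (1 count) in a Mock library of replicate 1 and at 0 in the other 4. Chance flags about 1 in 20 groups, and with 1 or 2 counts any library that holds a count beside libraries at 0 is marked in this way.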

How the results depend on the processing

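Ifitm3 was lower in nt, Mock and all transfected conditions than at Day06 under every alternative run. The number of members called was 1 for nt and 1 for Mock from Day06 (26.6% and 28.9% of all genes called), and 2 for each from the mean of the 7 days, where Bst2 was added and 42.7% and 41.8% of all genes were called. From Day05, an alternative chosen after seeing the data, it was 0 for nt (4.81% of all genes called). For all transfected conditions it was 2 (37.5%), and 1 with DESeq2, limma or 1 term for all transfected libraries (26.2% with 1 term), 0 from Day05 (9.76%), and 1 to 2 without single replicates. From Day00 to Day06 it was 0 (22.2% of all genes called), and 1 (Usp18) with limma, for which the share of all genes is not given. Member and siRNA pairs called against nt numbered 1, against 5 from the mean of nt and Mock (3.38% of all tests), 30 from Day06 (18.9%, chosen after seeing the data), 2 with RLE size factors or DESeq2, 0 without the filter, with limma or with adjustment over all tests together, and 0 to 1 without single replicates. Among siRNAs the count was 1 (44.8% of all genes called), and 0 to 1 without single replicates, and among days it was 2 (42.5%), and 1 without any single replicate. The siWdr5 value of Ifitm3 was −0.43 from Day06 in place of nt, and the Day06 to Day00 value ran from −0.30 to 0.13 without single replicates, above 0 without replicate 3. The summed ratio of all transfected libraries to Day06 was 0.433 with all counts as scaling. From Day05 (chosen after seeing the data) the summed ratio was 0.877 for all transfected libraries, 0.777 for nt and 0.592 for Mock. Without Ifitm3 the summed ratios were 0.699 (nt) and 0.755 (Mock) to Day06, 0.926 (nt) and 0.751 (siRNA-containing) to Mock, and 0.489 (Day06 to Day00). For the sum of all 9, nt to Mock was 1.31, and 1.16 to 1.35 without single replicates, and Day06 to Day00 was 0.832, and 0.748 to 1.001 without single replicates. With the 2 Mock libraries of a replicate summed (chosen after seeing the data), no count of members called changed in the comparisons run, which did not include siRNAs against the mean of nt and Mock. Without the replicate block no count of members called changed (1 for nt and Mock from Day06, 2 for all transfected conditions, 0 for nt against Mock), and siWdr5 against nt had an adjusted p of 0.0453. The cause of these changes was not tested. Depth limited the 8 low members, whose levels rest on 340 counts.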
